A study of Mus musculus with 15 samples.

Results

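The phosphatidylinositol 3-kinase-related kinases (PIKKs) are a family of very large proteins that share the fold of a lipid kinase but phosphorylate other proteins. The 6 mouse genes Atm, Atr, Prkdc, Mtor, Smg1 and Trrap were taken by their symbols from the 37583 gene rows of the RNA tables. All 6 were among the 13349 genes that passed the filter on low counts. In the tables they are ENSMUSG00000034218 (Atm), ENSMUSG00000032409 (Atr), ENSMUSG00000022672 (Prkdc), ENSMUSG00000028991 (Mtor), ENSMUSG00000030655 (Smg1) and ENSMUSG00000045482 (Trrap).

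Members of the family do different work in the cell. Atm and the DNA-dependent protein kinase encoded by Prkdc respond to DNA double-strand breaks, and Atr to single-stranded DNA at stalled replication forks. Mtor is the kinase of the complexes mTORC1 and mTORC2, which set growth to nutrients and growth factors, Smg1 phosphorylates Upf1 in nonsense-mediated mRNA decay, and Trrap lacks kinase activity and serves as a scaffold of histone acetyltransferase complexes. In developing lymphocytes Atm and Prkdc act at the breaks made during V(D)J recombination. New PIKK proteins are folded with the help of HSP90 and the TTT and R2TP cochaperones, whatever their later task.

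RNA was sequenced from B220+ cells, which carry the B lineage surface protein CD45R, taken without culture from mouse lymphomas. In 4 libraries the tumours carried the empty vector (EV), and in 5 they carried the vector sh-Kmt2d, a short hairpin RNA against the histone H3 lysine 4 methyltransferase gene Kmt2d. Mouse strain, age, any other allele of the mice, the promoter of the hairpin and the number of hairpins are not stated in the labels. The EV tumours are lymphomas too, so that no normal B cell enters the comparison. EV replicate 1 has the number 78 in its title and EV replicates 2 to 4 have 87, whereas sh-Kmt2d replicates 1 to 3 have 103 and replicates 4 and 5 have 110; what this number stands for is not given. Nothing in the labels states that the libraries came from separate animals, so the p-values may measure only the spread between these samples.

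Counts on genes ran from 5925745 (sh-Kmt2d replicate 5) to 29284830 per library, and sh-Kmt2d replicates 4 and 5 stood apart from the rest. Levels are given as CPM, gene counts scaled to a common library total that is adjusted by a TMM factor. That factor was 0.536 in sh-Kmt2d replicate 5 and 0.998 to 1.125 in the other libraries, which raises the CPM of replicate 5. Atm in that library had 3.784 CPM, and 2.025 by total counts alone. One measure of the difference between libraries was an index. It was the median log2 CPM of 25 genes with long transcripts outside the family minus that of 25 genes with short transcripts. The index was 2.46, 2.1, 2.71 and 0.75 in EV replicates 1 to 4, and -0.20, -0.57, 1.19, -2.36 and -5.75 in sh-Kmt2d replicates 1 to 5. Summed markers of B cells were 9030 to 10500 CPM in EV and 10100 to 34100 CPM in sh-Kmt2d libraries, with all 8 markers detected. The summed levels of the other cell types were 284 to 389 CPM in EV and 335 to 1150 CPM in sh-Kmt2d for T cells (8 markers), 179 to 626 and 147 to 270 for macrophages (8), and 6.20 to 178 and 2.34 to 44.4 for neutrophils (7). They were 7.17 to 195 and 13.3 to 44.1 for erythroid cells (5 of 6 markers matched), 73.0 to 169 and 12.9 to 106 for platelets (6), and 107 to 238 and 36.8 to 161 for stroma and endothelium (8). No matched marker was at 0 in all libraries, and the part of these cells in the results was not tested. Markers of B and T cells differed in direction, so a sum does not stand for each marker. Of the 8 B cell markers, 4 had a negative and 4 a positive log2 fold change, sh-Kmt2d over EV (median 0.03, edgeR). Cd79a and Cd79b were higher at an unadjusted p under 0.05, and 0 were lower. Among T cell markers Cd3d, Cd3g and Lck were higher and Cd4 and Cd8a lower at that threshold. Over all genes, 17.3% were higher and 11.1% lower. Kmt2d itself had 498, 252, 492 and 94.4 CPM in EV replicates 1 to 4 and 57.4, 46.8, 204, 18.9 and 9.78 CPM in sh-Kmt2d replicates 1 to 5, so that the library labelled sh-Kmt2d replicate 3 lay above EV replicate 4. Its log2 fold change, sh-Kmt2d over EV, was -2.31 ± 0.84 (SE, adjusted p = 0.167, edgeR).

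Promoter sequence of the family is given as a description, and a link between it and the levels over the libraries was not tested. RefSeq promoter windows on build GRCm38.p6 matched 5 of the 6 symbols, and the last 160 bases before each start are given here 5′ to 3′ on the gene's strand. Capitals mark the CCAAT box (CCAAT), the GC box (GGGCGG), the ETS core (CCGGAA) and the NRF1 core (TGCGCA), each on either strand, and overlapping matches are drawn as one run.
Atm (chr9:53536672-53536831, - strand): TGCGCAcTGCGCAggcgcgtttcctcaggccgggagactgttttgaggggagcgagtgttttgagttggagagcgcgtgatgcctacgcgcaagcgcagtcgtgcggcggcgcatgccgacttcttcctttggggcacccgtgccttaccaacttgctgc
Atr (chr9:95857437-95857596, + strand): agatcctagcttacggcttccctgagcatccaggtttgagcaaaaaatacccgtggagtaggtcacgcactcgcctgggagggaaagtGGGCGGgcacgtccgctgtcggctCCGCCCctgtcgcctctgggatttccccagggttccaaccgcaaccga
Mtor (chr4:148448422-148448581, + strand): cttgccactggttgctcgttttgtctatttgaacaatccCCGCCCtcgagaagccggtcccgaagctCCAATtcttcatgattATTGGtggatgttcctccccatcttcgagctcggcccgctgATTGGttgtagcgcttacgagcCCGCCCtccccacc
Smg1 (chr7:118243638-118243797, - strand): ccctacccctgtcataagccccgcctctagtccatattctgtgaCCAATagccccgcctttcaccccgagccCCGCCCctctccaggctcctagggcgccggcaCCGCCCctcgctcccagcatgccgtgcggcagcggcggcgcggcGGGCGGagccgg
Trrap (chr5:144768634-144768793, + strand): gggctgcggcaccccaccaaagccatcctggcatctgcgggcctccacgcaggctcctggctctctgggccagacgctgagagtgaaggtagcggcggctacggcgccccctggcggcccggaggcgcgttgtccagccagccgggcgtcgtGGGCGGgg
In the whole 250 bases before the start, a GC box was present in 5 of 5 windows, against 32.7% of all 32851 windows in the table. A CCAAT box was present in Mtor, Smg1 and Atm (33.8% of all windows), the ETS core in Mtor (12%) and the NRF1 core in Atm (6.43%). The GC box and CCAAT box of Atm and the ETS core of Mtor lie upstream of the stretch shown. The E-box CACGTG, found in 6.02% of all windows, was not in these 5. The 5 windows held 54.4% to 70.8% G and C, above the median of 52.4% over all windows. Motif letters are a description of the windows, and no binding was measured.

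All 6 genes had lower mean levels in sh-Kmt2d than in EV libraries, and no change passed the adjusted threshold. The edgeR fold change, written as a percentage of the EV level, was 25.4% for Smg1, 31.6% for Atm, 35.6% for Prkdc, 39.4% for Trrap, 45.1% for Atr and 54.8% for Mtor. The median log2 fold change of the 6 was -1.42, beside -0.04 over all genes tested. An adjusted p under 0.05 was reached by 0 of 6 members and by 0.0% of all genes in either direction (edgeR quasi-likelihood test, Benjamini-Hochberg over 13349 genes). At an unadjusted p under 0.05, 5 of 6 members were lower, where 11.1% of all genes were lower and 17.3% higher; among the 25 other long transcripts it was 21. DESeq2 placed 3.09% of all genes below its adjusted threshold as lower, and 0 of 6 members. Groups did not overlap, with sh-Kmt2d lower, in 5.12% of all genes and in 0 of 6 members. In bulk RNA such as this, fewer cells of a type and less RNA per cell cannot be told apart.

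**Figure D1:**
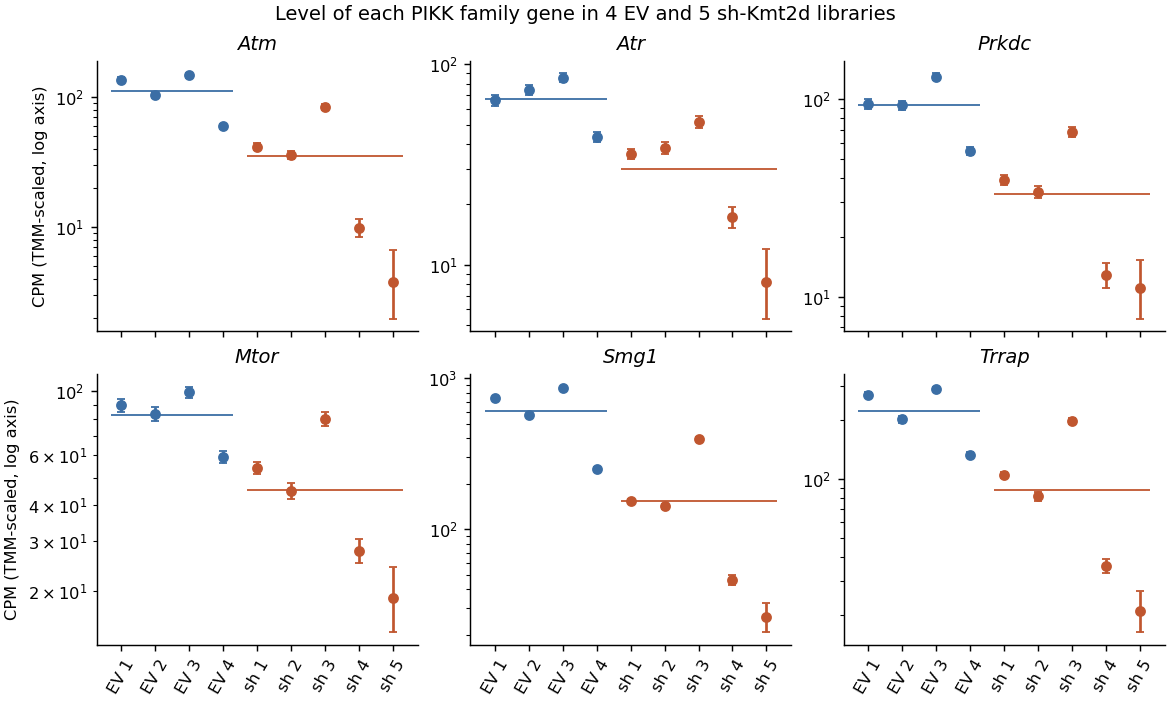
TMM-scaled CPM of each gene (log axis) in EV replicates 1 to 4 (blue) and sh-Kmt2d replicates 1 to 5 (red, written sh); bars are exact 95% Poisson intervals of the count and lines are group means. In all 6 panels EV replicates 1 to 3 lie above every sh-Kmt2d library, sh-Kmt2d replicate 3 lies above EV replicate 4, and sh-Kmt2d replicate 5 is lowest.

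Among the 3 DNA damage kinases, Atm spread most over the libraries. Atm, the kinase activated at double-strand breaks, had 137, 103, 148 and 59.9 CPM in EV replicates 1 to 4, and 41.7, 36.2, 84.2, 9.87 and 3.78 CPM in sh-Kmt2d replicates 1 to 5. The means were 112 ± 39.5 (SD, n = 4) and 35.2 ± 31.9 (SD, n = 5) CPM. Replicates 4 and 5 of sh-Kmt2d stood lowest, and replicate 5 held only 12 Atm counts, which puts its level between 1.96 and 6.61 CPM (exact 95% Poisson interval, counting error only). The log2 fold change was -1.66 ± 0.72 (SE, adjusted p = 0.172, edgeR).

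Atr, which slows the cell cycle when replication forks stall, had 66.1, 74.2, 85.9 and 43.5 CPM in EV and 35.5, 38.4, 51.7, 17.2 and 8.20 CPM in sh-Kmt2d libraries. Its groups overlapped as those of Atm did, through EV replicate 4 and sh-Kmt2d replicate 3, and the log2 fold change was -1.15 ± 0.47 (SE, adjusted p = 0.167, edgeR). Prkdc, the catalytic subunit that acts with Ku in end joining, had 94.4, 93.1, 130 and 54.7 CPM in EV and 38.8, 33.9, 67.9, 12.8 and 11.04 CPM in sh-Kmt2d libraries. For Prkdc the levels in sh-Kmt2d replicates 4 and 5 had overlapping counting intervals, which reached up to 14.8 and 15.3 CPM. Its log2 fold change was -1.49 ± 0.52 (SE, adjusted p = 0.167, edgeR), the smallest unadjusted p of the family.

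Mtor showed the smallest difference of the 6. Its levels were 89.4, 83.4, 99.2 and 58.8 CPM in EV and 54.1, 44.8, 80.2, 27.7 and 18.9 CPM in sh-Kmt2d libraries, with means of 82.7 ± 17.2 (SD, n = 4) and 45.2 ± 24.0 (SD, n = 5). The value of sh-Kmt2d replicate 3 came close to that of EV replicate 2. At -0.87 ± 0.40 (SE), the log2 fold change of Mtor missed the unadjusted threshold (adjusted p = 0.179, edgeR).

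Smg1 showed the largest. The nonsense-mediated decay kinase had 733, 566, 866 and 251 CPM in EV and 155, 142, 397, 46.4 and 26.2 CPM in sh-Kmt2d libraries. EV replicate 4 held 0.348 times the mean of the other 3 EV libraries, against 0.463 to 0.648 times for the other 5 genes. Its log2 fold change was -1.98 ± 0.73 (SE, adjusted p = 0.167, edgeR), and 1.26% of all genes tested had a more negative value.

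Trrap, the scaffold without kinase activity, had 270, 202, 289 and 133 CPM in EV and 104, 81.4, 197, 35.8 and 21.1 CPM in sh-Kmt2d libraries. The pattern over libraries was that of the active kinases. Its log2 fold change was -1.34 ± 0.58 (SE, adjusted p = 0.172, edgeR).

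The order of the libraries was nearly the same in each gene. In 6 of 6 genes EV replicate 3 was highest, EV replicate 4 was the lowest EV library, sh-Kmt2d replicate 3 was the highest sh-Kmt2d library, and replicates 4 and 5 of sh-Kmt2d were the lowest of the 9. EV replicate 4 lay above the other 4 sh-Kmt2d libraries in 6 of 6 genes. Pearson's r of log2 CPM over the 9 libraries was 0.969 (Atr with Prkdc) to 0.998 (Mtor with Trrap) across the 15 pairs of members, which share libraries, depth and the index. What differed was the size of the range. The highest library exceeded the lowest 39.0-fold for Atm, 33.1-fold for Smg1, 13.7-fold for Trrap, 11.7-fold for Prkdc, 10.5-fold for Atr and 5.24-fold for Mtor. Per unit of the long-minus-short index, log2 CPM was higher by 0.65 for Atm and 0.63 for Smg1, by 0.40 to 0.47 for Atr, Prkdc and Trrap, and by 0.29 for Mtor.

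Many other genes followed the same order. Of 10047 genes with a mean of at least 5 CPM, 439 (for Prkdc) to 1284 (for Atr) had an r above 0.95 with the member over the 9 libraries. Nearest to Atm were Zyg11b and Arid1a (r = 0.999 for both), nearest to Atr were Chd8 and Pkd1 (0.997), and nearest to Prkdc were Map3k2 (0.995) and Herc2 (0.994). Mtor ran closest to Trrap itself and to Usp34 (0.998 for both). Smg1 ran closest to Kmt2c (0.999) and Phc3 (0.998), and Trrap to Usp34 and Phip (0.999). Log2 fold changes of these neighbours in pattern were -1.24 (Chd8) to -2.04 (Kmt2c).

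Without sh-Kmt2d replicates 4 and 5, which left 4 against 3 libraries, the 6 fold changes kept their sign and were smaller. They were -1.37 ± 0.50 for Smg1, -1.04 ± 0.38 for Atm, -0.98 ± 0.33 for Prkdc, -0.80 ± 0.36 for Trrap, -0.68 ± 0.24 for Atr and -0.46 ± 0.24 for Mtor (log2, SE). In that fit 4 of 6 were lower at an unadjusted p under 0.05 (14.3% of all genes), and Trrap and Mtor were not (adjusted p = 0.201 and 0.242, edgeR). With the index as a covariate, the log2 differences lay near 0, at 0.15 ± 0.22 for Atm, 0.06 ± 0.17 for Atr, 0.07 ± 0.17 for Mtor, 0.00 ± 0.21 for Trrap, -0.28 ± 0.28 for Prkdc and -0.35 ± 0.33 for Smg1 (SE). None of the 6 passed the unadjusted threshold there (10.9% of all genes did, in either direction; smallest adjusted p of a member = 0.58, edgeR, for Smg1). The index and the group moved together in these 9 libraries, and their parts cannot be told apart with certainty at 6 residual degrees of freedom.

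**Figure D2:**
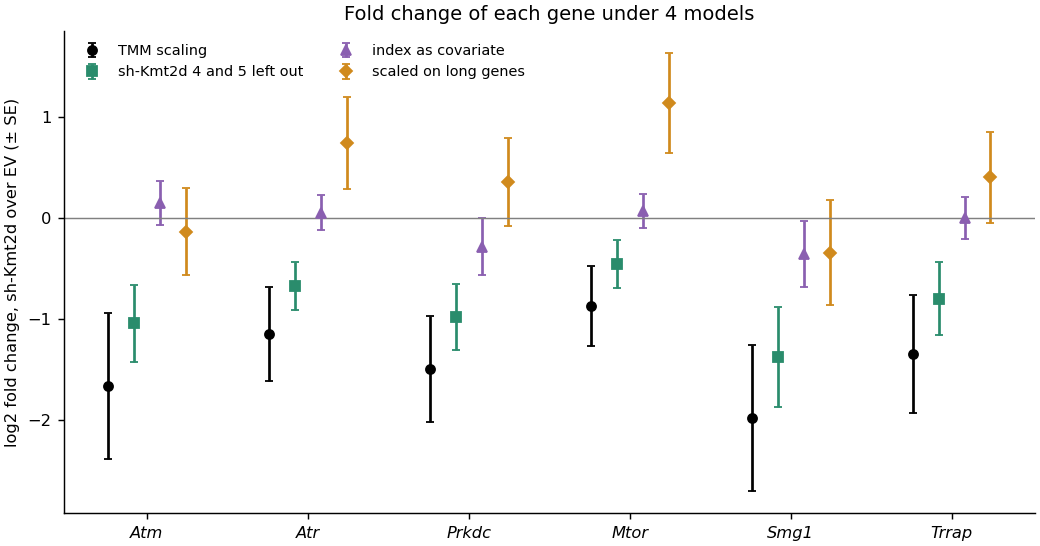
Log2 fold change (sh-Kmt2d over EV, ± SE) of each gene under TMM scaling (black), without sh-Kmt2d replicates 4 and 5 (green), with the long-minus-short index as covariate (purple) and with libraries scaled on 25 long transcripts (orange). The black and green points are all below 0, from -1.98 to -0.46, whereas the purple points lie between -0.35 and 0.15 and the orange ones between -0.34 and 1.14.

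Set against other long transcripts, the members differed in direction. The log2 level of Trrap minus the median of the 25 long genes was 0.30, 0.03, 0.12 and 0.41 in EV replicates 1 to 4 and 0.67, 0.65, 0.58, 0.69 and 0.71 in sh-Kmt2d replicates 1 to 5. Every sh-Kmt2d library was above every EV library on this scale, which held for Trrap and Mtor and for none of the other 4 members. The share of all genes without overlap on this scale was not computed, so this is not read as particular to these genes. Scaling on the long genes placed 76.8% of all genes higher at an unadjusted p under 0.05 (edgeR). For Mtor the same difference was -1.30, -1.25, -1.43 and -0.77 in the EV libraries, against -0.27, -0.21, -0.71, 0.32 and 0.55 in sh-Kmt2d libraries. The mean was -1.19 ± 0.29 (SD, n = 4) and -0.06 ± 0.50 (SD, n = 5), and the lowest sh-Kmt2d library, replicate 3, lay just above EV replicate 4. The means of Atr were -1.49 ± 0.24 and -0.73 ± 0.40 and those of Prkdc -1.06 ± 0.14 and -0.66 ± 0.28, with overlapping groups. Smg1 had 1.57 ± 0.19 and 1.27 ± 0.25, with overlapping groups. Atm split the sh-Kmt2d libraries, with -0.64, -0.52 and -0.64 in replicates 1 to 3 and -1.16 and -1.74 in replicates 4 and 5, on both sides of the EV range of -0.94 to -0.68.

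**Figure D3:**
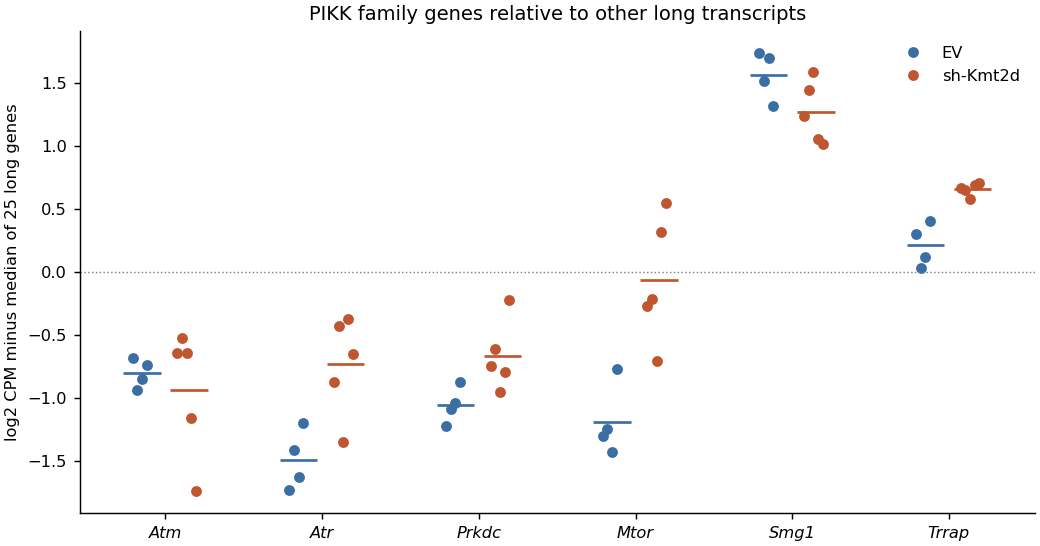
Log2 CPM of each gene minus the median log2 CPM of 25 other long-transcript genes, by library (blue EV, red sh-Kmt2d; lines are group means; 0 is the level of the long genes). Mtor (group means -1.19 and -0.06) and Trrap do not overlap between groups, and Atm has its 2 lowest points at -1.16 and -1.74. The share of all genes without overlap on this scale was not computed.

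When all libraries were scaled on those long genes, the log2 fold changes were 1.14 ± 0.49 for Mtor (SE, adjusted p = 0.0534, edgeR), 0.75 ± 0.46 for Atr, 0.40 ± 0.45 for Trrap, 0.36 ± 0.44 for Prkdc, -0.13 ± 0.43 for Atm and -0.34 ± 0.52 for Smg1. That scaling moved the median of all genes to 2.30 and placed 76.8% of all genes higher at an unadjusted p under 0.05, so 1 of 6 members higher lies below the background.

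The make-up of the family's counts shifted between libraries. Shares depend on transcript length, which was not used here, so only the change of a gene's share between libraries is read and not the rank of the genes. Mtor made up 7.4% ± 1.7 (SD, n = 4) of the 6 genes' counts in EV, compared with 14.7% ± 5.0 (SD, n = 5) in sh-Kmt2d libraries, with ranges of 6.1% to 9.8% and 9.1% to 21.2%. Smg1 made up 49.6% ± 5.4 in EV and 35.8% ± 6.3 in sh-Kmt2d libraries, and again sh-Kmt2d replicate 3 (45.2%) lay above EV replicate 4 (41.8%). Atr had 6.0% ± 1.1 and 9.0% ± 2.1, Trrap 19.4% ± 2.0 and 23.2% ± 1.1, Prkdc 8.0% ± 1.0 and 9.3% ± 1.8, and Atm 9.6% ± 0.5 and 7.9% ± 2.5. Of the 15 pairwise log2 ratios, 2 did not overlap between groups. The share among pairs of other genes was not computed, so these 2 are not read as particular to the family. Atm over Trrap was -1.15 to -0.96 in EV and -2.45 to -1.17 in sh-Kmt2d libraries, and Prkdc over Mtor was -0.10 to 0.39 and -1.11 to -0.24. The 6 genes together held 0.173% of gene counts in EV replicate 3 but 0.00478% in sh-Kmt2d replicate 5, where they rest on 283 counts.

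**Figure D4:**
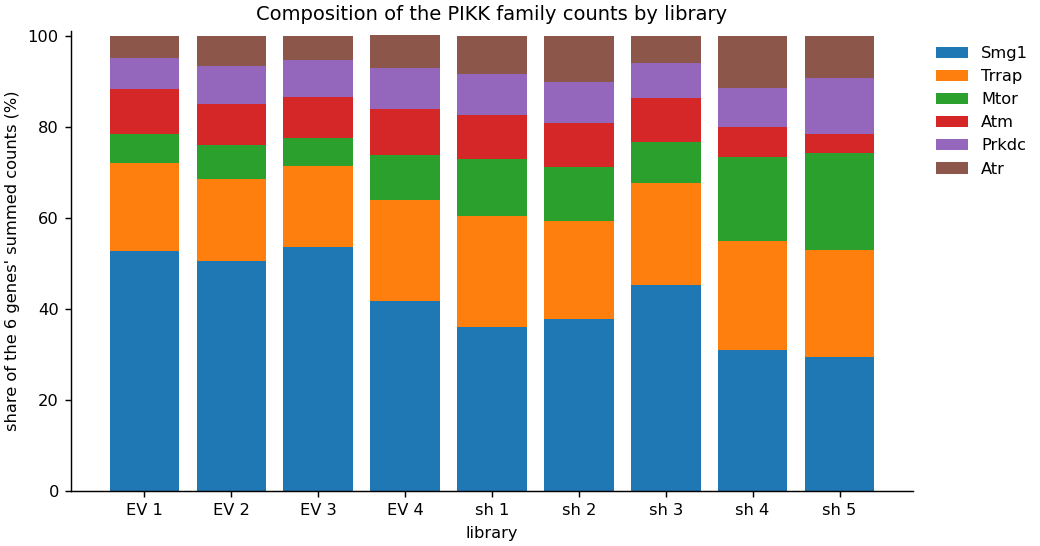
Share (%) of each gene in the summed counts of the 6 genes, by library (EV replicates 1 to 4, then sh-Kmt2d replicates 1 to 5, written sh). The Smg1 share is 41.8% to 53.5% in EV and 29.3% to 45.2% in sh-Kmt2d libraries, and the Mtor share is largest in sh-Kmt2d replicate 5, at 21.2%.

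Kmt2d ran with the family but over a wider range. Its log2 CPM minus the median of the 6 members was 2.13, 1.36, 1.83 and 0.67 in EV replicates 1 to 4 and 0.27, 0.17, 1.31, -0.21 and -0.56 in sh-Kmt2d replicates 1 to 5. Apart from sh-Kmt2d replicate 3, each sh-Kmt2d library was below each EV library on this scale. The difference was not tested.

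Genes that fold and mature PIKK proteins had values on both sides of 0. Of 9 maturation genes tested, 2 had an unadjusted p under 0.05, both of them higher and 0 lower, with a median log2 fold change of -0.05. Over all genes 11.1% were lower and 17.3% higher at that threshold, which is the background for this list and the partner lists below. Pih1d1, a subunit of the R2TP cochaperone, had 37.2 to 44.4 CPM in EV and 55.7, 55.7, 41.5, 75.9 and 365 CPM in sh-Kmt2d libraries (log2 fold change 1.55 ± 0.66, SE, adjusted p = 0.169, edgeR). The highest value by far was that of sh-Kmt2d replicate 5. Ruvbl2, an ATPase of the same complex, had 72.9 to 114 CPM in EV and 109 to 230 CPM in sh-Kmt2d libraries (0.67 ± 0.30, SE). Telo2, a TTT subunit, had a log2 fold change of -0.47 ± 0.26 and the chaperone Hsp90aa1 one of -0.96 ± 0.54 (SE).

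Partners and targets of the DNA damage kinases mostly did not pass the unadjusted threshold. Of 11 genes around Atm, 1 was higher and 0 were lower by the unadjusted p (median -0.49). That gene was H2afx, the histone variant phosphorylated at breaks, with 50.2 to 105 CPM in EV and 138, 102, 147, 149 and 469 CPM in sh-Kmt2d libraries. Its log2 fold change was 1.54 ± 0.50 (SE, adjusted p = 0.167 by edgeR and 0.0475 by DESeq2). It was the only gene of these pathway lists that DESeq2 called among those to which it gave an adjusted p. Eif4ebp1 of the mTOR list was given none and so was not assessed there. Rad50 (-0.95 ± 0.45), Mdc1 (-1.30 ± 0.63) and Trp53 (0.78 ± 0.38), a break sensor subunit, a mediator and the p53 gene, did not pass the unadjusted threshold. Of 13 genes around Atr, 0 were lower and 2 higher (median -0.22). They were Rpa2, a subunit of the single-strand binding protein (0.64 ± 0.25), and Rad1 of the checkpoint clamp (0.80 ± 0.33); Tipin (0.68 ± 0.33) and Hus1 (-0.63 ± 0.32) did not pass. Of 9 end-joining genes around Prkdc, 0 were lower and 1 higher (median 0.26). This was Nhej1, which encodes the ligation factor XLF, at 4.42 to 5.07 CPM in EV and 5.57 to 18.6 CPM in sh-Kmt2d libraries, groups that did not overlap. How many of all genes had sh-Kmt2d higher without overlap was not computed, so this is not read as particular to Nhej1. Dclre1c (-0.82 ± 0.37), Xrcc4 (0.48 ± 0.23) and Paxx (0.91 ± 0.53) did not pass.

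The mTOR list had values on both sides of 0. Of 14 genes tested, 2 were lower and 2 higher by the unadjusted p (median -0.16), and 0 passed the adjusted threshold. These counts lie near the shares of all genes, 11.1% lower and 17.3% higher. Rictor, the defining subunit of mTORC2, had 128, 105, 134 and 60.8 CPM in EV and 38.4, 35.1, 79.0, 17.4 and 2.52 CPM in sh-Kmt2d libraries (log2 fold change -1.62 ± 0.69, SE). Tsc1, which restrains mTORC1, was at -1.30 ± 0.54 (SE). Rheb, the small GTPase that activates mTORC1, was at 0.88 ± 0.37 (SE), with 48.3 to 67.5 CPM in EV and 63.4 to 204 CPM in sh-Kmt2d libraries. Eif4ebp1, the translation repressor that mTORC1 phosphorylates, had 14.7, 13.6, 11.5 and 16.8 CPM in EV and 29.1, 29.3, 27.0, 49.3 and 290 CPM in sh-Kmt2d libraries. Its groups did not overlap, a pattern whose share over all genes, with sh-Kmt2d higher, was not computed. Its log2 fold change was 2.57 ± 0.80 (SE, adjusted p = 0.167, edgeR). With the index as covariate it was 0.10.

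Around Smg1, 1 of 9 nonsense-mediated decay genes was lower and 0 higher by the unadjusted p (median -0.64). Upf3b, which links Upf proteins to the exon junction complex, had 78.4, 72.3, 70.6 and 54.8 CPM in EV and 38.4, 39.3, 51.6, 27.0 and 7.25 CPM in sh-Kmt2d libraries, without overlap (log2 fold change -1.07 ± 0.44, SE, adjusted p = 0.167, edgeR). Upf2 (-1.11 ± 0.55) and Smg6 (-0.88 ± 0.48) had negative values that did not pass.

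Trrap sits in the SAGA and NuA4/TIP60 acetyltransferase complexes, and of 21 subunit genes 4 were lower and 2 higher by the unadjusted p (median 0.06). Ep400, the ATPase of the TIP60 complex, had 368, 292, 388 and 204 CPM in EV and 140, 120, 248, 57.2 and 35.3 CPM in sh-Kmt2d libraries (log2 fold change -1.38 ± 0.52, SE). The SAGA subunits Atxn7 (-1.47 ± 0.62) and Supt20 (-0.73 ± 0.28) were also lower, and Supt20 did not overlap between groups (193 to 243 CPM in EV, 71.6 to 168 CPM in sh-Kmt2d libraries). The remaining lower subunit was Epc1, and Yeats4 was one of the higher ones. Supt3, another SAGA subunit, was higher (1.20 ± 0.45, SE), at 8.92 to 11.8 CPM in EV and 12.5 to 54.9 CPM in sh-Kmt2d libraries. Partner subunits of one complex thus lay on both sides of 0.

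**Figure D5:**
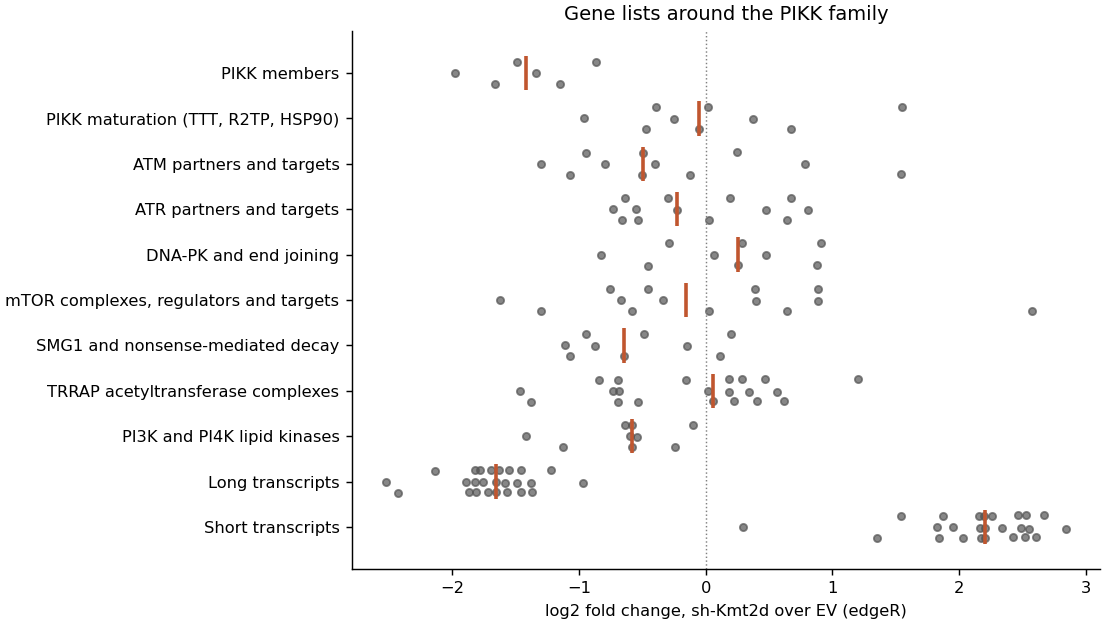
Log2 fold change (sh-Kmt2d over EV, edgeR) of each tested gene of the family, of 8 related lists and of the long- and short-transcript lists; points are genes, spread vertically for legibility, and red lines are medians. The family median is -1.42, next to -1.65 for the long transcripts, whereas the medians of the partner lists lie between -0.64 and 0.26 and that of the short transcripts is 2.20.

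Genes next to the members on the chromosome were read as well, and were chosen after their values had been seen. RefSeq (GRCm38.p6) was used only for which genes adjoin. Npat, whose start lies within 1 kb of that of Atm, had a log2 fold change of -0.87 ± 0.49 (SE), beside -1.66 for Atm. Mcm4, beside Prkdc, had 130 ± 33.2 (SD, n = 4) CPM in EV, against 128 ± 48.6 (SD, n = 5) CPM in sh-Kmt2d libraries, a log2 fold change of -0.02 ± 0.37 (SE), and Mzt2 on the other side had 1.61 ± 0.65. Exosc10 beside Mtor was at 0.01 ± 0.21, and Arl6ip1 beside Smg1 at 0.08 ± 0.33. Xrn1 beside Atr (-1.48 ± 0.68) and Smurf1 beside Trrap (-0.52 ± 0.38) had negative values, and none of these 7 passed the adjusted threshold.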

How the data were processed

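RNA of 4 EV and 5 sh-Kmt2d libraries was analysed; the 6 H3K4me1/2 peak lists were not used. The authors deposited raw counts per gene, 1 table per library; the submitters' processing notes list HTSeq 0.6.0, CASAVA 1.8.2 and mm9. Aligner, annotation and strand setting: not given in the sources used here, so overlapping and antisense genes cannot be separated. Library sizes leave out 3 kinds of summary rows: non-unique alignments (36.48% to 73.68%), those outside genes (2.69% to 12.93%) and ambiguous ones (0.83% to 1.35%). Non-unique alignments were 36.48% to 47.91% in EV and 44.08% to 73.68% in sh-Kmt2d libraries, highest in sh-Kmt2d replicate 5. Those outside genes were 6.08% to 12.93% in EV and 2.69% to 7.0% in sh-Kmt2d libraries, lowest in that replicate. The part of these differences in the levels was not tested. Genes received 22.8% to 49.36% of alignments. Reads that map to several places were thus not counted. Symbols matched 32860 of 37583 rows (87.4%). No pair of libraries agreed within sampling noise (chi-square per gene at least 25.3).

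Groups follow the vector in the labels. Counts were tested with edgeR 4.0.16 in R 4.3.3 (filterByExpr, TMM, robust quasi-likelihood F-test, two-sided, Benjamini-Hochberg over 13349 genes, threshold 0.05). Each SE is the absolute log2 fold change over the square root of F. CPM values are TMM-scaled, and log2 CPM uses a prior count of 2. Alternatives were DESeq2 1.42.0, limma 3.58.1, other scalings, no filter, blocks, the index as covariate and leaving out libraries. The edgeR fit was also run on simulated independent counts, which held no long-minus-short gradient and no grouping by title number. That run does not test the fit under these features. Summaries used Python 3.11.15, pandas 2.3.3, numpy 2.4.6 and scipy 1.17.1. Intervals cover counting error only.

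The members and lists were chosen with earlier results of these data known. The text names the 6 members, Kmt2d, up to 4 genes of smallest p per list and the 2 genes most like each member; Epc1, Yeats4 and the chromosomal neighbours were named, and the motifs searched, after values had been seen. Of the genes so taken, 1 list gene and 1 neighbour are not reported here.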

Additional observations from a re-analysis of the deposited data

Results flagged for a closer look

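Of 122 groups of 4 or 5 libraries examined, 17 held a highest or lowest library far from the others of its group; chance alone flags a few in such a number, and the groups share libraries. None was a level of a PIKK member. Kmt2d was high in sh-Kmt2d replicate 3, at 203.9 CPM beside 9.775 to 57.37 in the other sh-Kmt2d libraries, and also relative to long transcripts, at 0.63 beside -0.39 to -0.15 (log2). Replicate 5 of sh-Kmt2d, the library of lowest depth and lowest index, stood far above the other 4 for 9 partner genes and 1 neighbour. Its levels were 365.1 CPM for Pih1d1, 229.9 for Ruvbl2, 469.2 for H2afx, 411.5 for Trp53, 18.6 for Nhej1, 148.5 for Paxx, 289.5 for Eif4ebp1, 203.7 for Rheb, 54.86 for Supt3 and 48.87 for Mzt2. The same library was low for Exosc10 (96.17 CPM, others 133.4 to 147) and Arl6ip1 (133.4 CPM, others 319.5 to 382.2). EV replicate 4 was high for Rpa2 (59.66 CPM, others 36.93 to 39.78) and Mcm4 (179.6 CPM, others 112.4 to 114.4), and low for Supt20 (192.5 CPM, others 236.8 to 242.9).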

How the results depend on the processing

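Over 19 alternatives, 106 of 114 member fold changes kept their sign, and no member passed the adjusted threshold under any of them (adjusted p 0.0534 to 0.999, edgeR, DESeq2 or limma). The 8 of opposite sign came from the index as covariate (Atm 0.149, Atr 0.055, Mtor 0.07 and Trrap 0.001, log2) and from scaling on long transcripts (Atr 0.75, Prkdc 0.36, Mtor 1.14 and Trrap 0.40). In the main fit 5 members were lower at an unadjusted p under 0.05, beside 11.1% of all genes. The percentages that follow are the shares of all genes lower in the same fit. The count of members was 2 with scaling on total counts (9.55%), which moves the median of all genes to -0.20. It was 0 with the index (5.55%) or with scaling on long transcripts (0.105%). Without EV replicate 3 it was 0 (5.81%). It was 2 without EV replicate 1 (5.64%), EV replicate 2 (7.67%) or sh-Kmt2d replicate 4 (6.47%). Without sh-Kmt2d replicate 1 (8.15%) or 2 (8.59%) it was 3. It was 6 without sh-Kmt2d replicate 3 (17.1%), with DESeq2 (15.5%) and with limma voom (13.9%). Over all genes, 0 were called lower and 0 higher at an adjusted p under 0.05; other counts lower were 1 with total counts, 413 with DESeq2, 10 with scaling on long transcripts and 0 to 1 when single libraries were left out, and other counts higher were 235 with DESeq2, 3 with the index and 9651 with scaling on long transcripts. At an unadjusted p under 0.05, 1480 genes were lower, and 2467 without the filter, 939 with a random block on the title number, 741 with the index, 14 with scaling on long transcripts and 777 to 2445 without single libraries. The 2306 higher became 1354 with limma voom, 280 with the title number as a block, 712 with the index, 10257 with scaling on long transcripts and 560 to 3029 without single libraries. The last number of the titles, used as a replicate block, gave 2 genes higher at the adjusted and 1328 at the unadjusted threshold; its 5 same-numbered pairs had deviations correlated at -0.304 to 0.406, so it was not taken to pair the samples. Depth limits sh-Kmt2d replicate 5 most, with 12 to 83 counts per member.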

Other observations

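The lipid kinases of the PI3K and PI4K families, relatives of the PIKKs in sequence that phosphorylate inositol lipids, were read beside them. All 9 tested had a negative log2 fold change, with a median of -0.58, beside a median of -0.04 over all genes tested. How many of all genes had a negative value was not computed. Of the 9, 1 was lower at an unadjusted p under 0.05 (11.1% of all genes were). Pik3c2b, a class II PI3K, had 419, 256, 325 and 189 CPM in EV and 144, 118, 196, 64.3 and 33.1 CPM in sh-Kmt2d libraries (-1.42 ± 0.48, SE, adjusted p = 0.167, edgeR). Pik3cd, the catalytic subunit that dominates in B cells, had 412 to 486 CPM in EV and 103 to 446 CPM in sh-Kmt2d libraries (-0.59 ± 0.38, SE), overlapping groups. Pik3c2a (-1.12 ± 0.53) and Pik3cb (-0.60 ± 0.40) did not pass. With the index as covariate the median of the 9 was 0.27.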
